A study of Mus musculus with 6 samples.

Results

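Fibronectin, 2 fibrillins, tenascin C, periostin, SPARC, 3 microfibril-associated proteins and fibulin 1 are secreted proteins that assemble around cells into the fibrous part of the extracellular matrix. Their genes, Fn1, Fbn1, Fbn2, Tnc, Postn, Sparc, Mfap2, Mfap4, Mfap5 and Fbln1, were taken from the expression table by symbol. All 10 were among the 15803 genes listed. RNA-seq was done on growth plate cartilage of E18.5 mouse embryos, and the labels call the material growth plate chondrocytes. There were 3 WT libraries, from Hnrnpk fl/fl embryos, and 3 CKO libraries, from Col2a1-Cre;Hnrnpk fl/fl embryos. Both genotypes therefore carried the floxed alleles. The Cre was driven by the Col2a1 promoter, so deletion was directed to cells that express Col2a1, such as chondrocytes, and not to every cell of the dissected tissue. The paper describes Col2a1 expression in the perichondrium as well, so perichondrial cells may also have lost the gene. Hnrnpk encodes an RNA-binding protein that takes part in transcription, splicing and mRNA stability. The comparison asked how the transcriptome of the growth plate changed when it was lost. The labels did not say whether the libraries of a genotype came from separate embryos, so the p-values measure the spread between these libraries.

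Fibronectin is laid down first in many matrices, is stretched into fibrils through cell surface integrins, and serves as a template for other fibres. Fibrillin 1 and fibrillin 2 polymerise end to end into microfibrils, which carry MFAP2, MFAP5 and the fibulins on their surface, hold latent TGF-beta and BMPs, and guide elastin deposition. Tenascin C, periostin and SPARC are matricellular proteins: they are secreted into the matrix but mainly modulate how cells and fibres interact. In the growing skeleton, microfibrils are abundant in the perichondrium and are also found around chondrocytes, and tenascin C and periostin are known from the perichondrium, periosteum and tendon attachments.

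Each library held between 1183743 and 1379674 reads assigned to genes in WT and between 1153871 and 1454094 in CKO, which is shallow, and 3 reads corresponded to 2.06 to 2.60 CPM, the unit of the table, in which reads are scaled to the same total in every library. The 10 genes together took 0.434 to 1.07% of the reads of a library. Hnrnpk itself was at 842, 955 and 944 CPM in WT and at 759, 949.9 and 780.0 CPM in CKO. The genotypes overlapped, with a log2 difference of -0.14 (SE 0.15, limma adjusted p = 0.622). This value covers the whole gene, with exons outside the deleted stretch and with cells that do not express the Cre, so it checks neither the deletion nor the labels. A set of 14 chondrocyte markers summed to 27062 to 35182 CPM in WT and to 6689 to 6989 CPM in CKO. Of the 14, 10 were called lower in CKO (limma adjusted p under 0.05), against 2.6% of all genes tested, and 13 differences were negative. None of the 14 was at 0, so chondrocyte RNA was present in every library. Within WT, library 3 stood apart from the others, and within CKO, library 2 did. In WT 3, 732 genes were more than 2-fold above both other WT libraries and 456 were below, and in CKO 2 the numbers were 791 and 717. The corresponding numbers for the other 4 libraries were 130 to 169 above and 280 to 422 below. CKO 1 and CKO 3 were close to each other, with a chi-square of 1.27 per degree of freedom over 9275 genes, but still differed beyond sampling noise.

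This split runs through the 10 genes. WT 3 was the highest WT library for 9 of them, all but Fbn2, and for 8 of them it was the highest of the 6 libraries. Over all genes tested, WT 3 was the highest WT library in 41.2%. CKO 2 was the lowest CKO library for 7 of the 10, against 37.6% of all genes tested, and the highest for Postn and Fbln1. The summed level of 10 skeletal muscle markers reached 231 CPM in WT 3 and 282 CPM in CKO 2, where the other 4 libraries held 48.0 to 117 CPM. In CKO 2, Myog alone, which encodes the muscle regulator myogenin, made 179 CPM of it. Without Myog the sums were 196 CPM in WT 3, 72.5 and 43.5 CPM in the other WT libraries, and 94.2 to 104 CPM in CKO, where CKO 2 was not the highest. The part of these differences in the results that follow was not tested, and values without WT 3 or CKO 2 are given where they change a call or move a value most.

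Of the 10 genes, Fn1 was higher in CKO and Mfap2 was lower at an adjusted p under 0.05, and the other 8 did not pass. The test was limma on log2(CPM + 1), with p-values adjusted over the 12155 genes that averaged 1 CPM or more, and differences are given on that scale. Of all genes tested, 3.18% were called higher and 2.6% were called lower, 5.78% in all. The median difference of the 10 genes was -0.55, with 8 negative and 2 positive, and that of all genes tested was 0.01. For Fn1, Tnc, Mfap2, Mfap4 and Fbln1 the WT and CKO libraries did not overlap, which is 5 of 10 against 27.7% of all genes tested. Fn1 lay wholly above WT, like 14.5% of all genes tested, and the other 4 lay wholly below, like 13.2% of all genes tested. By a looser criterion like that of the study, a log2 difference beyond 1 with an unadjusted p under 0.05, 3 of the 10 were lower in CKO (Mfap2, Mfap4 and Fbln1) and 0 were higher, against 5.1% lower, 5.3% higher and 10.4% in either direction among all genes. Without WT 3 and CKO 2, the libraries that stood apart, 2 genes were called higher (Fn1 and Fbn2) and 3 lower (Mfap2, Mfap4 and Fbln1), against 9.77% and 8.03% of all genes. With the close libraries averaged, WT 1 with WT 2 and CKO 1 with CKO 3, so that 2 values stood for each genotype, none of the 10 was called by limma, against 0.0905% of all genes, and at an unadjusted p under 0.05 1 was higher (Fn1) and 4 were lower (Mfap2, Mfap4, Fbln1 and Sparc). Both of these choices were made after the values had been seen. For an unadjusted p alone, here and below, the share of all genes was not taken. Such counts therefore cannot be set against a background.

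**Figure D1:**
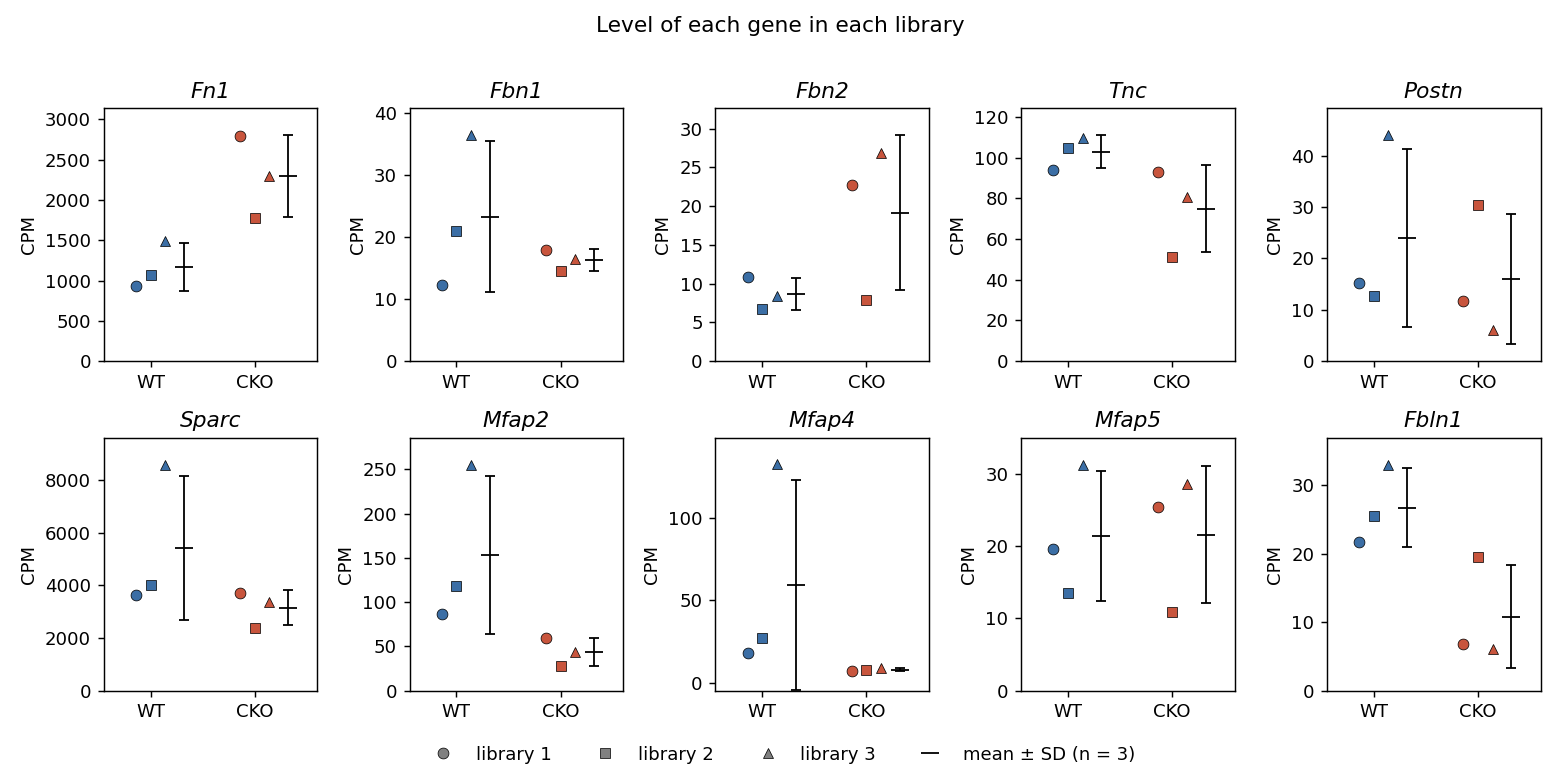
Level of each of the 10 genes in CPM (vertical axis, a linear scale of its own for each gene) in the 3 WT and 3 CKO libraries, with the mean and SD of each genotype as a bar. The CKO points lie above all WT points for Fn1 and below them for Tnc, Mfap2, Mfap4 and Fbln1, and WT 3 is the highest WT point in 9 of the 10 panels.

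Compared per kilobase of exon, so that long and short transcripts can be set side by side, the 10 genes spanned a very wide range. In WT, Sparc came first at 1427 ± 724 CPM per kb (SD, n = 3), followed by Mfap2 at 127 ± 73.9 and Fn1 at 99.7 ± 25.2 CPM per kb, whose ranges overlapped. Mfap4 (30.8 CPM per kb) and Tnc (13.3 CPM per kb) came next, again with overlapping ranges. Fbln1, Mfap5, Postn and Fbn1 followed between 6.12 and 1.91 CPM per kb, each overlapping its neighbour, and Fbn2 was last at 0.658 ± 0.157 CPM per kb, below the range of Fbn1. In CKO, the order began with Sparc at 832 ± 178 CPM per kb, then Fn1 at 196 ± 43.6 and Mfap2 at 36.2 ± 13.4 CPM per kb, and none of these 3 overlapped the next. From Tnc at 9.64 CPM per kb down to Fbn1 at 1.34 CPM per kb, every gene overlapped its neighbour. Fn1 and Mfap2 thus overlapped in WT, with Mfap2 the higher mean, and were apart in CKO, with Fn1 above. The fibrillins, the polymer-forming proteins of microfibrils, were the least abundant transcripts per length in both genotypes, together with Postn.

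Fn1 (chr1:71585520-71653200, minus strand, GRCm38) encodes fibronectin. It was at 929, 1071 and 1496 CPM in WT and at 2796, 1778 and 2300 CPM in CKO. Every CKO library was above every WT library, and the mean went from 1165 ± 295 to 2291 ± 509 CPM (SD, n = 3). The log2 difference was 0.98 (SE 0.21, 95% interval 0.50 to 1.45, limma adjusted p = 0.0267), or 1.97-fold. The counts behind it were 1282 to 1771 reads in WT and 2463 to 4065 reads in CKO. The call was lost without WT 1 (difference 0.83, adjusted p = 0.132), without WT 2 (0.93, adjusted p = 0.124), without CKO 1 (0.82, adjusted p = 0.114) and without CKO 3 (0.96, adjusted p = 0.108), while it held without WT 3 (1.17, adjusted p = 0.0126) and without CKO 2 (1.15, adjusted p = 0.00607). Without WT 3 and CKO 2 together the difference was 1.35 (adjusted p = 4.33e-06). With the close libraries averaged it was 0.80 (adjusted p = 0.350). The counts are per gene and do not separate the splice forms of fibronectin.

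The receptors through which cells bind fibronectin were looked at beside it. Of 7 measured integrin and syndecan genes that averaged 1 CPM or more, 0 were called in either direction by limma, edgeR or DESeq2. Of this list edgeR tested only 4 genes. At an unadjusted limma p under 0.05 there was 1 of the 7, and their median difference was 0.42. Itga5, which with the beta 1 integrin chain forms the classical fibronectin receptor, was at 89.2, 103 and 86.2 CPM in WT and at 124, 147 and 111 CPM in CKO. These did not overlap, but the difference of 0.45 (SE 0.18) did not pass (limma adjusted p = 0.178). Itgb1, its partner chain, was at 151, 159 and 204 CPM in WT and at 111, 271 and 113 CPM in CKO, with CKO 2 far above the other CKO libraries (limma adjusted p = 0.788). Without CKO 2, Itgb1 had a difference of -0.60 (adjusted p = 0.0504), and without WT 3 and CKO 2 it was -0.47 and was called lower (adjusted p = 0.0182). The whole-transcriptome genes whose pattern over the 6 libraries was most like that of Fn1, among the 6826 genes that averaged 10 CPM or more, were Anapc13 (Pearson r = 0.995), Rab1a (r = 0.993) and Atp5j2 (r = 0.991). Their own log2 differences were smaller, at 0.25, 0.14 and 0.57. These correlations are over 6 points that share the genotype split and the library differences.

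Fbn1 (chr2:125300594-125507993, minus strand) and Fbn2 (chr18:58008623-58210487, minus strand) encode the fibrillins, of which fibrillin 2 is the form best known from fetal tissue. Fbn1 was at 12.3, 21.0 and 36.3 CPM in WT and at 17.9, 14.4 and 16.5 CPM in CKO. The CKO values lay inside the WT range, and the difference of -0.37 (95% interval -1.17 to 0.44) did not pass (limma adjusted p = 0.609). It came from WT 3: without that library it was 0.01. Fbn2 was at 10.9, 6.75 and 8.45 CPM in WT and at 22.7, 7.94 and 26.9 CPM in CKO. CKO 1 and CKO 3 were above all WT libraries and CKO 2 was among them. The difference was 0.92 (95% interval -0.05 to 1.89, limma adjusted p = 0.256) with all libraries and 1.43 (adjusted p = 0.0228) without CKO 2. The counts were low, 9 to 15 reads in WT and 11 to 33 in CKO. Exons of Fbn1 share 2442 bases with Gm9913 on the opposite strand, which was itself nearly unread at 0.262 CPM.

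Mfap2 (chr4:141010418-141015984, plus strand) encodes MFAP2, also known as MAGP1, a small glycoprotein bound along fibrillin microfibrils. It was at 87.0, 118 and 255 CPM in WT and at 59.8, 27.4 and 44.2 CPM in CKO. All CKO libraries were below all WT libraries, and the mean went from 153 ± 89.5 to 43.8 ± 16.2 CPM (SD, n = 3). The log2 difference was -1.70 (SE 0.38, 95% interval -2.55 to -0.85, limma adjusted p = 0.0309), which places CKO at 0.308 times WT. WT 3 made the WT mean high, yet the decrease remained without it, at -1.26, with an adjusted p of 0.0609. The call was also lost without WT 2 (-1.81, adjusted p = 0.0990) and without CKO 3 (-1.74, adjusted p = 0.0992), and with the close libraries averaged (-2.07, adjusted p = 0.160). Without both WT 3 and CKO 2 the difference was -0.96 (adjusted p = 0.00596). The genes with the most similar pattern over the 6 libraries were Lman1 (Pearson r = 0.996), Cd82 (r = 0.995) and Pdgfrl (r = 0.988), with log2 differences of -0.36, -0.62 and -2.16.

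Mfap5 (chr6:122505845-122529290, plus strand) encodes MAGP2, the closest relative of MFAP2, which binds the same fibrillins. It was at 19.6, 13.5 and 31.3 CPM in WT and at 25.4, 10.8 and 28.6 CPM in CKO. The genotypes overlapped throughout, and the difference was -0.02 (limma adjusted p = 0.985), with an interval of -0.92 to 0.88, or 0.528 to 1.84 times WT, so changes inside those bounds were not detectable with these libraries. Without CKO 2 it was 0.40 and without WT 3 it was 0.28. The ratio of Mfap5 to Mfap2 within a library sets the relatives against each other. On the log2 scale it was -2.10, -3.03 and -2.99 in WT and -1.20, -1.27 and -0.61 in CKO. It was higher in every CKO library, by 1.68, with an exact two-sided permutation p of 0.1, the smallest that 3 against 3 libraries allow (0.2 adjusted over 4 ratios). It was 1.54 without WT 3 and 1.80 without CKO 2. Mfap5 itself differed by -0.02, so this shift of the ratio restates the decrease of Mfap2 and adds no separate result.

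Mfap4 (chr11:61485431-61488900, plus strand) encodes a fibrinogen-domain protein that binds elastic fibres and collagen. It was at 18.1, 27.0 and 133 CPM in WT and at 6.88, 7.94 and 8.67 CPM in CKO. The genotypes did not overlap, and the CKO libraries were tight while WT 3 was far above the other WT libraries. Mfap4 had the largest difference of the 10 genes, -2.24 (SE 0.59, 95% interval -3.54 to -0.93), but narrowly did not pass (limma adjusted p = 0.0525). It passed with edgeR (-2.93, adjusted p = 0.0423), which called 4.71% of 7704 genes lower, 4.85% higher and 9.57% in all, with DESeq2 (adjusted p = 0.000124), with TMM or RLE scaling (adjusted p = 0.0476 and 0.0493), and without the filter on low values (adjusted p = 0.0414). Without WT 3 the difference was -1.40 (adjusted p = 0.0526). Mfap4 shares 89 exon bases with Mapk7, which lies on the opposite strand and was at 25.1 CPM. The strand setting of the read counting is not given in the sources used here, so some of these reads may belong to Mapk7, and the CKO counts of Mfap4 were only 10 to 11 reads.

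Fbln1 (chr15:85205949-85286535, plus strand) encodes fibulin 1, a calcium-binding protein that associates with fibronectin, elastic fibres and basement membranes. It was at 21.7, 25.5 and 32.9 CPM in WT and at 6.88, 19.5 and 6.07 CPM in CKO. CKO 1 and CKO 3 were far below WT, and CKO 2 lay just under the lowest WT library. The difference was -1.39 (SE 0.41, 95% interval -2.30 to -0.48) and did not pass (limma adjusted p = 0.0786). Without CKO 2 it was -1.87 and passed (adjusted p = 0.00527). The CKO counts were 10, 27 and 7 reads.

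Upstream sequence from RefSeq, matched by symbol (GRCm38.p6), was used for 6 of the 10 genes. No window was found for Fn1, Mfap4 and Mfap5, and Fbn2 was not included in this step. It is shown for Mfap2 and Fbln1, the matched genes whose log2 difference went beyond -1, as the 250 bases before an annotated start. The Mfap2 window is chr4:141010174-141010423 and the Fbln1 window is chr15:85205699-85205948, both on the plus strand and written 5′ to 3′. Capitals mark matches, on either strand, to short promoter motifs. The first motif searched was TATAAA, the box near many start sites. The next were CCAAT, bound by NF-Y, and GGGCGG, bound by Sp1. The last was CACGTG, the palindromic E-box, with the run ACGTG that overlaps it searched separately.
Mfap2: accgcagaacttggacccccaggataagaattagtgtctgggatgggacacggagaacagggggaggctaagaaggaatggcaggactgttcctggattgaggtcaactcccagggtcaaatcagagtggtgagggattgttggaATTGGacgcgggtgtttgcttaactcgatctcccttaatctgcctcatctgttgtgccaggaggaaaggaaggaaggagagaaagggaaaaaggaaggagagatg
Fbln1: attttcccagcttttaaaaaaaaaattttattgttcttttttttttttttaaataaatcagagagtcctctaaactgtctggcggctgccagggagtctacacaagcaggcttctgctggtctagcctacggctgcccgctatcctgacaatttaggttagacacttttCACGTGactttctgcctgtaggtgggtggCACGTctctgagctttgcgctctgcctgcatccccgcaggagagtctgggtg
In the Mfap2 window the letters matched were 1 CCAAT, on the minus strand, beginning 105 bases before the start, and in the Fbln1 window they were 1 CACGTG at 81 bases and a further ACGTG at 52 bases, on the minus strand. Of 32851 such windows over all genes, 33.8% held CCAAT, 6.02% held CACGTG and 16.6% held ACGTG on either strand. RefSeq lists a further start for each of these genes. The window before the other Mfap2 start holds GGGCGG and no CCAAT, and the one before the other Fbln1 start, which overlaps the window shown, holds GGGCGG as well, which 32.7% of all windows held. The matches are a description of the windows only.

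Sparc (chr11:55394500-55423183, minus strand) encodes osteonectin, a calcium- and collagen-binding protein abundant in bone and cartilage. It was the most abundant of the 10, at 3628, 4026 and 8565 CPM in WT and at 3690, 2396 and 3370 CPM in CKO. CKO 1 lay above WT 1, so the genotypes overlapped. The difference was -0.69 (95% interval -1.35 to -0.03) and did not pass (limma adjusted p = 0.214). Without WT 3 it was -0.30, and without WT 3 and CKO 2 together it was -0.12. Fn1 and Sparc made up 93.9 to 96.4% of the reads of the 10 genes in each library. Their balance, chosen for description after the values had been seen and therefore not tested, was 0.256, 0.266 and 0.175 Fn1 reads per Sparc read in WT and 0.758, 0.742 and 0.683 in CKO. The genotypes were far apart in it, and CKO 2 lay between CKO 1 and CKO 3.

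Tnc (chr4:63959785-64047015, minus strand) encodes tenascin C, a hexameric protein that binds fibronectin and loosens cell adhesion to it. It was at 94.2, 105 and 110 CPM in WT and at 92.8, 51.2 and 80.6 CPM in CKO. No CKO library reached the lowest WT library, although CKO 1 came close to it. The difference was -0.49 (SE 0.23, 95% interval -1.004 to 0.015, limma adjusted p = 0.246), and -0.25 without CKO 2. Relative to fibronectin the separation was wider, because the ratio also takes in the rise of Fn1 (log2 difference 0.98), which was already called. The log2 ratio of Tnc to Fn1 was -3.29, -3.34 and -3.76 in WT and -4.90, -5.09 and -4.82 in CKO. It was lower in every CKO library, by 1.47 on average, with an exact two-sided permutation p of 0.1 (0.2 adjusted over 4 ratios). The difference was -1.62 without WT 3 and -1.40 without CKO 2.

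Postn (chr3:54361109-54391037, plus strand) encodes periostin, a matricellular protein of periosteum and other collagen-rich connective tissue that binds both fibronectin and tenascin C. It was at 15.2, 12.8 and 43.9 CPM in WT and at 11.7, 30.3 and 6.07 CPM in CKO. WT 3 and CKO 2 were the highest of their genotypes, and all other libraries were between 6.07 and 15.2 CPM. The difference of -0.61 had an interval from -1.87 to 0.65 (limma adjusted p = 0.587), and was -0.08 without WT 3 and -1.19 without CKO 2. The ratio of Postn to Sparc differed by 0.08 on the log2 scale, with an exact two-sided permutation p of 0.9, and its sign turned without CKO 2 (-0.68). The log2 ratio of Fbn2 to Fbn1 was -0.17, -1.51 and -1.98 in WT and 0.33, -0.79 and 0.67 in CKO, a difference of 1.29 with overlapping libraries (exact two-sided permutation p = 0.2, 0.267 adjusted over 4 ratios), with 0.91 without WT 3 and 1.72 without CKO 2.

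**Figure D2:**
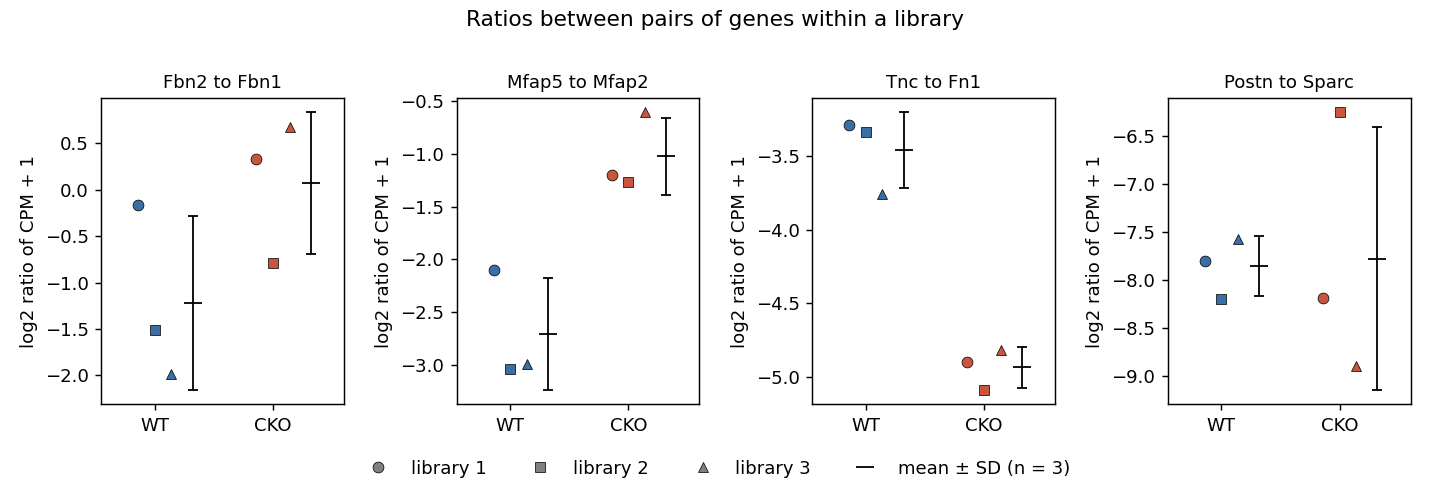
Log2 ratio of CPM + 1 between pairs of the genes within each library (vertical axis, 1 panel per pair), with the mean and SD of the 3 libraries of each genotype as a bar. Mfap5 to Mfap2 lies higher and Tnc to Fn1 lower in every CKO library than in any WT library, while Fbn2 to Fbn1 and Postn to Sparc overlap.

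The genes that work with these proteins were called in both directions. Of 20 measured partners of elastic fibres and microfibrils, 2 were called higher and 1 lower in CKO, against 3.18% and 2.6% of all genes tested, and their median difference was -0.25. Both that were called higher encode latent TGF-beta binding proteins, which dock on fibrillin microfibrils and, for LTBP1, on fibronectin. Their relatives Ltbp3 (log2 difference -0.22, limma adjusted p = 0.744) and Ltbp4 (-0.81, limma adjusted p = 0.433) had negative differences and were not called. Ltbp1 was at 6.52, 9.76 and 12.7 CPM in WT and at 31.6, 49.1 and 33.8 CPM in CKO, well apart (log2 difference 1.89, SE 0.31, limma adjusted p = 0.00770). Ltbp2 was at 2.90, 6.004 and 0.845 CPM in WT and at 15.8, 11.5 and 17.3 CPM in CKO (2.09, SE 0.49, limma adjusted p = 0.0357), with WT counts of 1 to 8 reads. Fbln7, a fibulin expressed in cartilage, tooth and other tissue, went from 217, 207 and 124 CPM to 90.1, 66.4 and 94.5 CPM (-1.09, SE 0.24, limma adjusted p = 0.0275). Efemp2, the fibulin 4 gene needed for elastin crosslinking, was at 600 to 691 CPM in WT and at 662, 324 and 697 CPM in CKO, with only CKO 2 below the WT range (limma adjusted p = 0.594). Lox, the lysyl oxidase that crosslinks elastin and collagen, was at 97.1, 104 and 113 CPM in WT and at 150, 58.5 and 231 CPM in CKO, with CKO libraries on both sides of WT (0.28, limma adjusted p = 0.737). Without CKO 2, Lox was called higher (0.83, adjusted p = 0.0268).

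Among 9 measured relatives of tenascin, periostin and SPARC, 0 were called higher and 2 lower by limma, against 3.18% and 2.6% of all genes tested. The counts were the same with edgeR, which tested only 5 genes of the list, and with DESeq2. At an unadjusted limma p under 0.05, 0 were higher and 4 lower, with no share of all genes taken, and the median difference was -0.63. Tgfbi, the paralog of periostin, went from 391, 391 and 466 CPM in WT to 229, 302 and 250 CPM in CKO (-0.68, SE 0.16, limma adjusted p = 0.0376). Smoc2, a SPARC-related matricellular protein, went from 507, 352 and 277 CPM to 48.1, 136 and 45.9 CPM (-2.44, SE 0.38, limma adjusted p = 0.00583), the largest decrease among the related genes. Fstl1, another secreted SPARC-family protein, was at 389, 459 and 563 CPM in WT and at 695, 447 and 704 CPM in CKO, where CKO 2 lay in the WT range (0.37, limma adjusted p = 0.339). Without CKO 2 it was called higher (0.59, adjusted p = 0.0451). Sparcl1, also called hevin, was at 25.4, 29.3 and 50.7 CPM in WT and at 17.2, 30.3 and 12.1 CPM in CKO (-0.82, limma adjusted p = 0.229), with -0.53 without WT 3. The paralogs of SPARC and periostin thus included called decreases where Sparc and Postn themselves did not pass. Whether the decreases differ between paralogs was not tested. Ltbp1 and Smoc2 stayed called whichever library was left out. The call was lost for Ltbp2 without WT 1, WT 3, CKO 1 or CKO 3 (adjusted p = 0.0615 to 0.135), for Fbln7 without WT 1, WT 2, CKO 1 or CKO 3 (adjusted p = 0.0739 to 0.133), and for Tgfbi without any library but CKO 2 (adjusted p = 0.0804 to 0.158).

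**Figure D3:**
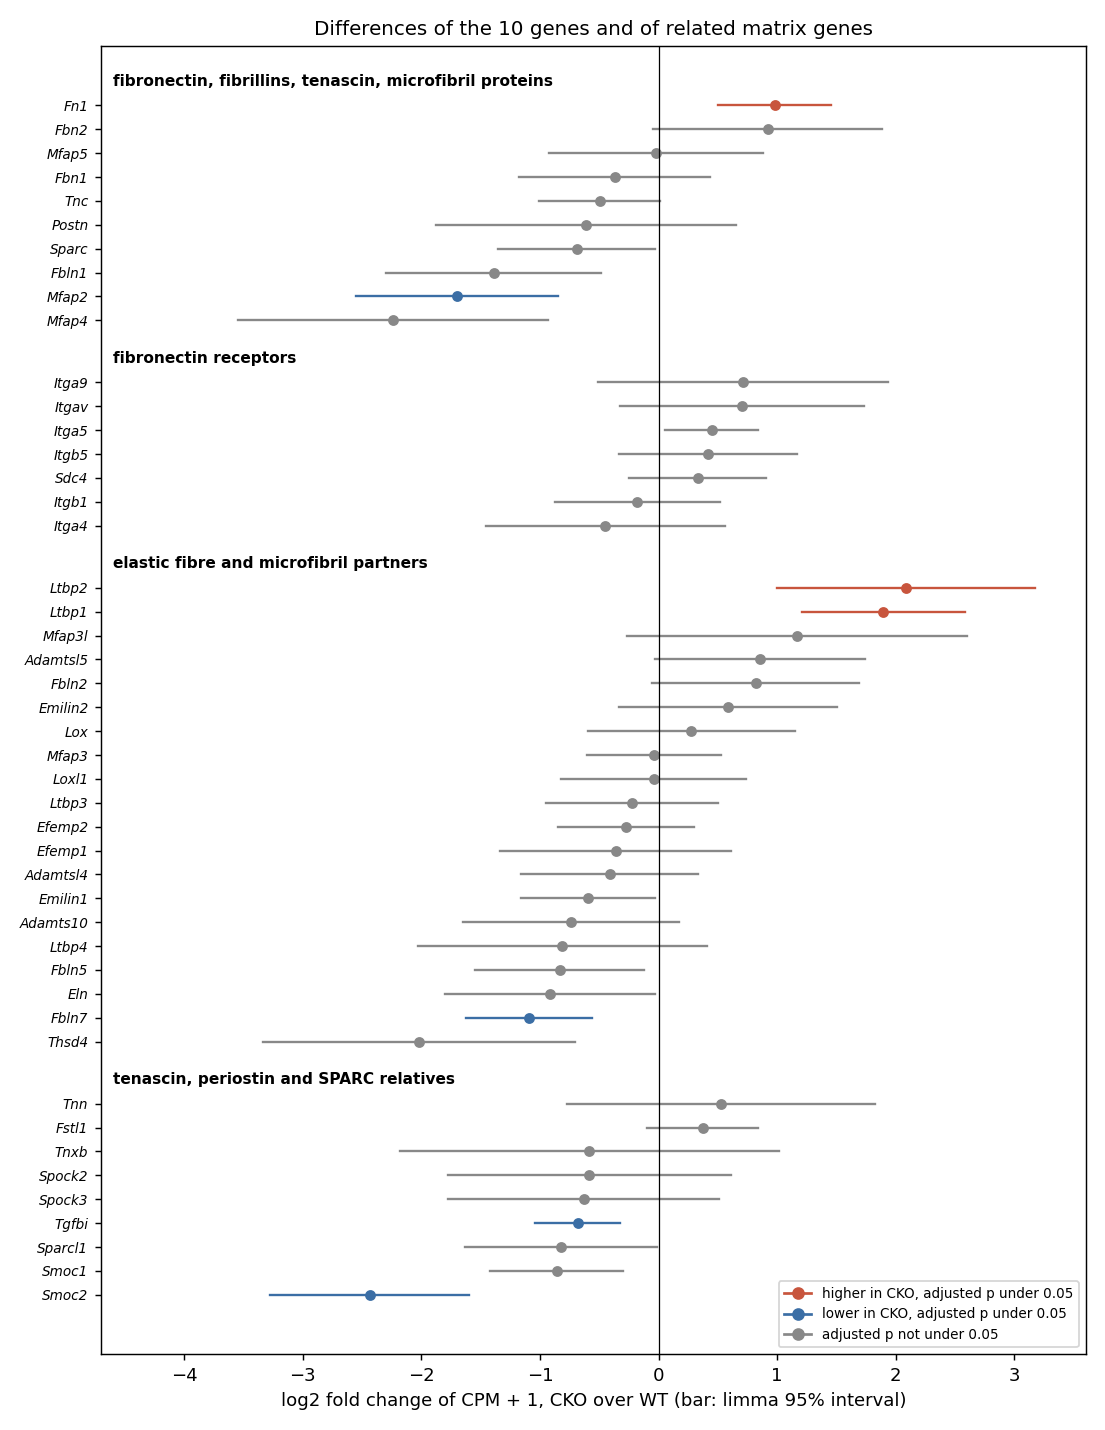
Log2 difference of CPM + 1, CKO over WT (horizontal axis), with its 95% limma interval, for the 10 genes and the measured genes of 3 related lists. Red marks genes called higher, blue genes called lower and grey genes that did not pass: Fn1, Ltbp1 and Ltbp2 are red, and Mfap2, Fbln7, Tgfbi and Smoc2 are blue.

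Other cell types of the dissected tissue also express several of these genes, and in bulk RNA fewer cells of a type and less RNA per cell cannot be told apart. Beside the lower Mfap2, the 12 fibroblast and perichondrium markers summed to 4458 to 6746 CPM in WT and to 1839 to 3661 CPM in CKO, without overlap, with CKO 2 lowest and none of the 12 at 0. Of those 12, 3 were called lower (Col1a2, Col5a1 and Dcn) and 0 higher by limma, against 2.6% and 3.18% of all genes tested. The counts were the same with edgeR, which tested 10 of the 12 and called 4.71% of all its genes lower and 4.85% higher. They were also the same with DESeq2, for which the share of all genes was not taken. At an unadjusted limma p under 0.05, 7 were lower and 1, Prrx1, was higher, and 11 of the 12 differences were negative. The 6 tendon markers summed to 607 to 912 CPM in WT and to 218 to 405 CPM in CKO. Most of each sum was Fmod, which was called lower (557, 694 and 743 CPM in WT, then 340, 167 and 352 CPM in CKO). Of the 5 tendon markers tested, 1 had a positive and 4 had a negative difference, and only Fmod was called. Tnmd was at 34.8, 36.8 and 146 CPM in WT and at 33.7, 29.6 and 32.1 CPM in CKO. Scx was at or under 3 reads in every library. Beside the higher Fn1, the 6 hypertrophic chondrocyte markers summed to 479 to 895 CPM in WT and to 2985, 550 and 3230 CPM in CKO, carried by Mmp13 (257, 260 and 650 CPM in WT, then 2155, 377 and 2301 CPM in CKO) and Ibsp. Of the 5 tested, 3 had positive and 2 negative differences: Col10a1 0.33, Panx3 -0.19 and Pth1r -0.91. The 7 osteoblast markers summed to 60.0 to 104 CPM in WT and to 362, 52.7 and 332 CPM in CKO. Most of the CKO 1 and CKO 3 sums was Bglap2 (50.7, 69.0 and 30.4 CPM in WT, then 290, 35.4 and 257 CPM in CKO). All 5 osteoblast markers tested had positive differences, with Alpl at 0.06. In both lists CKO 2 was within or below the WT range, and no gene tested was called by limma, edgeR or DESeq2. Of the hypertrophic list limma and edgeR tested 5 genes each, and of the osteoblast list limma tested 5 and edgeR 2. In the first list 3 genes and in the second 1 had an unadjusted limma p under 0.05. Fn1 in CKO 2, at 1778 CPM, was the lowest of the CKO libraries and above every WT library. The 6 smooth muscle and pericyte markers summed to 109 to 188 CPM in WT and to 159 to 253 CPM in CKO. Of these, 0 were called by limma, edgeR (4 tested) or DESeq2, and 2 had an unadjusted limma p under 0.05. The 6 macrophage and osteoclast markers summed to 151 to 382 CPM in WT and to 283 to 309 CPM in CKO, with Cd68 called higher. The 6 keratinocyte markers summed to 28.7 to 60.0 CPM in WT and to 140 to 191 CPM in CKO, with Krt1 and Krtdap at or near 0. Perp carried this difference and was the only one called, higher, with a mean of 13.4 CPM in WT and 115 CPM in CKO. Krt10 (log2 difference 0.41) and Trp63 (-0.23) overlapped between genotypes and were not called. Krt5 and Krt14 were not among the genes listed. The sums therefore do not show a rise of keratinocyte markers as a set. The 5 endothelial markers summed to at most 3.61 CPM and the 4 erythroid markers to at most 28.9 CPM, in CKO 2. The part of these cell types in the differences of the 10 genes was not tested.

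**Figure D4:**
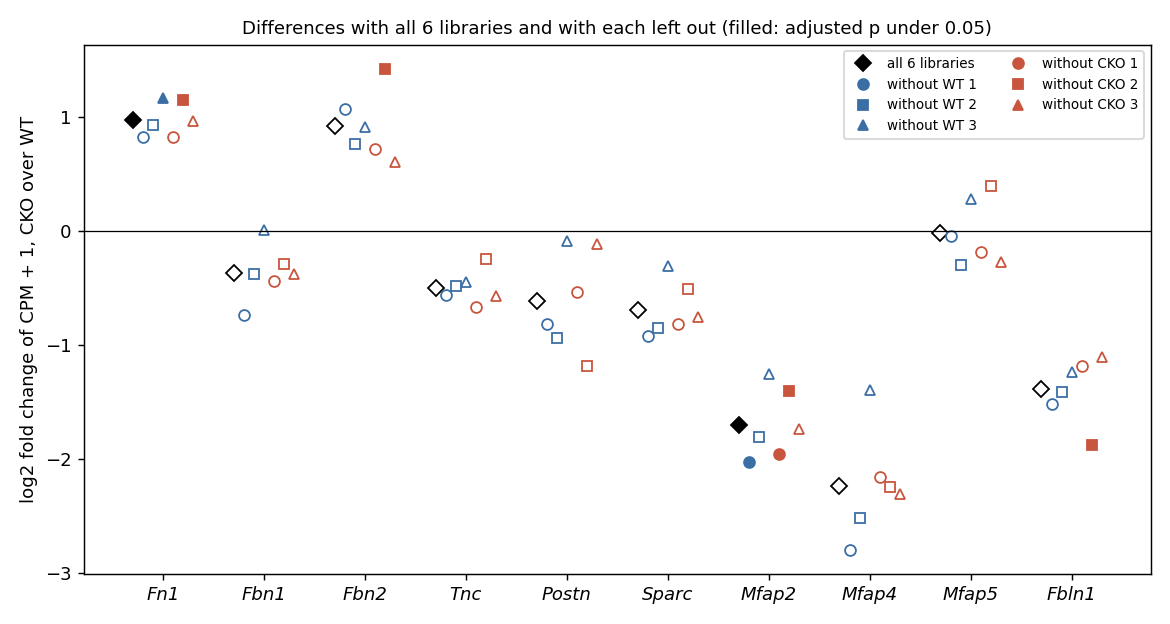
Log2 difference of CPM + 1, CKO over WT (vertical axis), of each of the 10 genes with all 6 libraries (diamond) and after removal of any 1 library, where filled symbols have an adjusted p under 0.05. The sign of Fn1, Fbn2, Tnc, Postn, Sparc, Mfap2, Mfap4 and Fbln1 is the same in all 7 fits, and that of Fbn1 and Mfap5 is not.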

How the data were processed

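Total RNA of the 6 libraries was taken with TRIzol and made into libraries with a stranded mRNA kit. Per the submitters' processing notes, cutadapt 2.5, HISAT2 and featureCounts 1.6.3 were used. Genome build, annotation and strand setting are not given in the sources used here. The authors deposited CPM, assigned reads scaled to the same total in every library, for 15803 genes. Every value was a whole multiple of what 1 read is worth (100% within 0.001 reads), so reads were recovered. The table's Ensembl IDs were matched to GENCODE M21 on GRCm38 (15212 of 15217), for coordinates and exon lengths.

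CKO was compared with WT by limma 3.58.1 in R 4.3.3 on log2(CPM + 1), with a mean-variance trend, in the 12155 genes that averaged 1 CPM or more, with Benjamini-Hochberg adjustment over all of them. Alternatives were edgeR 4.0.16 and DESeq2 1.42.0 on the recovered reads, TMM and RLE scaling, a pseudocount of 0.1, no filter, a threshold of 0.01, a replicate block, and leaving out each library. Leaving out WT 3 and CKO 2 together, and averaging the close libraries, were added after the data had been seen. Ratios between genes were tested by exact permutation over the libraries. The fits were tested on simulated data.

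The 10 genes and the related and marker lists were chosen with earlier results of these data known. Named were all 10 genes, Hnrnpk, every related gene that passed, the 2 most abundant of each related list that did not, and the 3 genes most like each called gene. Single marker genes, Ltbp3, Ltbp4, Gm9913 and Mapk7 were named after their values were seen. The depths give the precision: at 3 reads a level is 2.06 to 2.60 CPM.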

Additional observations from a re-analysis of the deposited data

How the results depend on the processing

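Limits come first. The libraries are shallow, so Fbn2, Mfap4, Fbln1, Postn and Mfap5 rest on few reads, and counting intervals would cover counting error only. WT 3 and CKO 2 stood apart from the libraries of their genotype, and CKO 1 and CKO 3 were close, so 3 libraries per genotype give less spread information than 3 even ones. Of 15 alternatives, Fn1 passed in 10, Mfap2 in 11, Mfap4 in 7, Fbln1 and Fbn2 in 2 each, and Fbn1, Tnc, Postn, Sparc and Mfap5 in none. Fn1, Fbn2, Tnc, Postn, Sparc, Mfap2, Mfap4 and Fbln1 kept their direction in all 15. The cause of the changes below was not tested.

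Of the 10 genes, 1 was called higher and 1 lower. The count called lower became 2 with edgeR, DESeq2, TMM, RLE or no filter, and both counts became 0 at a threshold of 0.01 and with the close libraries averaged. Without WT 3 and CKO 2 together they became 2 higher and 3 lower. Leaving out 1 library gave 0 to 2 higher and 0 to 2 lower. Related genes called were 2 higher and 3 lower. These became 1 higher with a pseudocount of 0.1, 1 and 1 at a threshold of 0.01, 0 and 0 with the close libraries averaged, 6 and 6 without WT 3 and CKO 2 together, and 1 to 5 higher and 1 to 4 lower without 1 library. Over all genes, 387 were higher and 316 lower. These became 114 and 71 at 0.01, 5 and 6 with the close libraries averaged, 1188 and 976 without WT 3 and CKO 2 together, and 122 to 658 and 76 to 560 without 1 library.

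Replicate numbers gave no sign of pairing the libraries. Same-numbered WT and CKO libraries had correlations of their deviations of 0.038, -0.13 and -0.10, and 0 libraries correlated best with their own number. The paper compared littermates, but the sample titles name no litters, so these correlations cannot exclude a pairing by litter. With the number as a block, 225 genes were higher and 160 lower, the 10 genes gave 1 higher and 2 lower, and related genes gave 1 and 1.

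Signs turned only for small differences. Without 1 library, Fbn1 ran from -0.74 to 0.0065 (without WT 3), Mfap5 from -0.29 to 0.40 (without CKO 2, and 0.28 without WT 3), Itgb1 from -0.60 to 0.040 (without CKO 1, and 0.028 without CKO 3), Efemp2 from -0.47 to 0.082 (without CKO 2) and Lox from -0.15 (without CKO 3) to 0.83. Without WT 3 and CKO 2 together, Fbn1 was 0.085, Mfap5 0.70 and Efemp2 0.033. With the close libraries averaged, Lox was -0.029. The log2 ratio of Postn to Sparc, 0.078 with all libraries, ran from -0.68 to 0.64 without 1 library, and was -0.090 without WT 2.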
